A study of Mus musculus with 6 samples.

Results

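The HIN-200 family, the interferon-inducible Ifi200 genes of the mouse together with Aim2, was described in CD3ε+CD45+ cells of the gut epithelium. Members were the rows of the deposited gene table whose symbol begins with Ifi20 or Ifi21 and a further digit, or is Mnda, Mndal or Aim2. This found 14 of 55487 gene models, all on chromosome 1, of which 13 were annotated as protein-coding and 1, Ifi203-ps, as a pseudogene. No row carried the symbol Mnda. In 9 members the counts summed over the 6 libraries reached the minimum of 60, and these are described in full. The values nearest to that minimum were 63 counts for Ifi203-ps and 15 for Ifi204. The libraries were made from total RNA of live CD3ε+CD45+ cells sorted from the epithelial area of wild-type C57BL/6J mouse small intestine. Of these, 3 were B220-CD3ε+CD45+ cells, labelled T cells, and 3 were B220+CD3ε+CD45+ cells, labelled X cells (B220− and B220+ below). The series title names an RXR agonist, and no library is labelled as treated. The labels give no age or sex of the mice and do not say whether mice were pooled or each library had its own mouse. The p-values therefore measure only library-to-library spread, which may be technical.

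Many HIN-200 proteins bind double-stranded DNA through a C-terminal HIN domain, and most carry an N-terminal pyrin domain that joins them to other pyrin-domain proteins. Not every member has a HIN domain (Ifi214 below), and the domains of each member were not examined here. Aim2 senses DNA in the cytosol and assembles an inflammasome with the adaptor Pycard and the protease Casp1, while Ifi204 is known for DNA sensing upstream of Sting1. Type I and type II interferons induce many members, and the family is best studied in macrophages and other myeloid cells.

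The genes lie in 1 cluster of 680.9 kb (mm10, chr1:173350879-174031810). RefSeq (GRCm38.p6) windows from 250 bases before to 50 after the start site were at hand for 12 of the 14 members, in 14 windows. The core of the interferon-stimulated response element, searched as GAAANNGAAA on both strands, was present in at least 1 window of 9 of these 12 members (75%), against 1079 of 27025 genes (3.99%) in the whole RefSeq set and 14 of 23 (60.9%) in the list of interferon-stimulated genes used below. The interferon gamma-activated sequence, searched as TTCNNNGAA on both strands, was present in 1 of the 12 (Ifi202b), against 9.55% of all genes, and the 2 motifs did not meet in any member. The windows of Ifi206, Ifi213, Ifi214, Ifi208 and Ifi207, the first window of Mndal and the second window of Ifi203 all held the same letters, GAAATCGAAA. Ifi209 lacked a match, and its closest letters at the corresponding position differed by 1 substitution, G1T, counted from the 5′ end of GAAATCGAAA. Several of these windows are near copies of one another. The first windows of Ifi214 and Ifi209 were 95.3% identical, those of Ifi213 and Ifi208 89.5% and those of Ifi206 and Ifi208 87.5%. The windows of Ifi214 (chr1:173535908-173536207, minus strand), Ifi209 (chr1:173630609-173630908, plus strand), Ifi208 (chr1:173673415-173673714, plus strand) and Mndal (chr1:173880138-173880437, minus strand) are shown because they span the members with the largest falls, the closest pair of copies and the most abundant member. They run 5′ to 3′ along the gene, with the response element core, or in Ifi209 its closest letters, in capitals.
Ifi214: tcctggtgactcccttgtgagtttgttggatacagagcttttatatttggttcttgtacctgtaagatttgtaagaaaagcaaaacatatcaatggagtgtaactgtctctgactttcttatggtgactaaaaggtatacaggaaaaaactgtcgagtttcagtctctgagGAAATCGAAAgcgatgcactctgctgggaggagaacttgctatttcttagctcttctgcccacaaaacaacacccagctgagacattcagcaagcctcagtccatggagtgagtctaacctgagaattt
Ifi209: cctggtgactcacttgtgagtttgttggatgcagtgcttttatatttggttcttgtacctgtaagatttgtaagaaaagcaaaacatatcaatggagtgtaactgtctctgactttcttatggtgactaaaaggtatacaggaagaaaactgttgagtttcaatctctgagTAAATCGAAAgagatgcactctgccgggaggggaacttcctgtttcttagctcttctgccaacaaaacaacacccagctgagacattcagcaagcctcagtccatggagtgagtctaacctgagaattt
Ifi208: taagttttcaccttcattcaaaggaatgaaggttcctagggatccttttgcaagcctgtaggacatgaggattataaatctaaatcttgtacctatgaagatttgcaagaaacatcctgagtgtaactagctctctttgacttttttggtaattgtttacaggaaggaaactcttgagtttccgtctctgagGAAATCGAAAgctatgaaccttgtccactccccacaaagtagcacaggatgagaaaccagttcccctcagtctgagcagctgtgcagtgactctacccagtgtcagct
Mndal: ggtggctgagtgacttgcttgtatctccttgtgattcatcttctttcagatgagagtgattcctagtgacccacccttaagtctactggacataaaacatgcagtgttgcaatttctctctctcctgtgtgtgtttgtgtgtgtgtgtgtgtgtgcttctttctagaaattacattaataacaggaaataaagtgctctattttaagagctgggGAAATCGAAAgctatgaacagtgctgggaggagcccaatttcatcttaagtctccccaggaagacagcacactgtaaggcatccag
A match describes these letters only and was not tested as a site of binding.

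Members of the first part of the cluster, from Aim2 to Ifi208, were lower in B220+ cells, and the most abundant members did not differ detectably. Of the 9 members tested with edgeR's quasi-likelihood test, 6 were called lower in B220+ cells at a Benjamini-Hochberg adjusted p under 0.05 over all genes and 0 higher (0 also at an unadjusted p under 0.05). Among all 14722 genes tested, 5.56% were called lower and 5.58% higher. DESeq2 called 6 members lower and 0 higher, where 5.84% and 6.12% of genes were. Ifi214, Ifi209, Ifi208, Ifi213, Ifi206 and Aim2 fell 1.20-fold to 2.06-fold, while Mndal, Ifi203 and the pseudogene Ifi203-ps did not pass the test. The median log2 fold change was −0.54 over the 9 members and −0.0074 over all genes tested. In the same 6 members all 3 B220+ libraries lay below every B220− library, which was the case for 13.9% of genes tested. Blocking on the replicate number gave 6 members lower and 0 higher, where 8.60% and 8.85% of genes were. Each library pools many cells, so fewer cells that express a gene and less RNA per cell cannot be told apart.

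**Figure D1:**
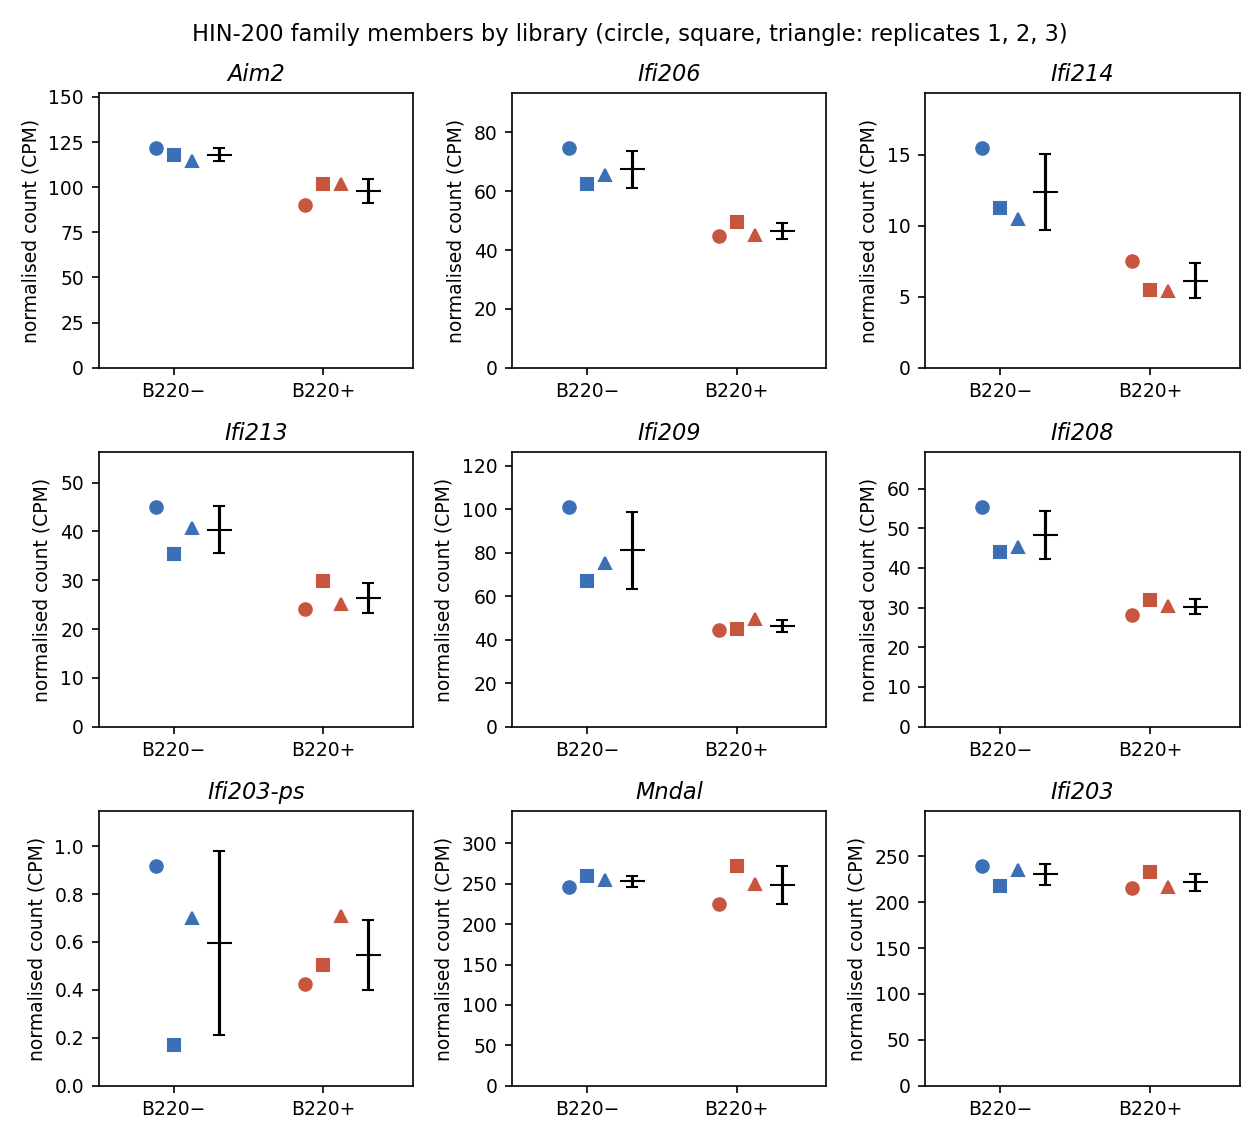
Normalised counts (CPM, linear axes from 0) of the 9 members in each library; each point is 1 library of the B220− (blue) or B220+ (red) group, and the black bars are mean ± SD of 3 libraries. In Aim2, Ifi206, Ifi214, Ifi213, Ifi209 and Ifi208 the 2 groups do not overlap, whereas in Mndal, Ifi203 and Ifi203-ps they do.

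Aim2 (ENSMUSG00000037860, chr1:173350879-173466040, plus strand) stood at 121.5, 118 and 114 CPM (normalised read count, scaled to library size) in B220− replicates 1, 2 and 3 and at 90.4, 102 and 101.6 CPM in B220+ replicates 1, 2 and 3. All 3 B220− libraries were above the highest B220+ library, and B220+ replicate 1 was the lowest. Its log2 fold change (B220+ minus B220−) was −0.27 (SE 0.072, 95% interval −0.42 to −0.11, edgeR adjusted p = 0.0296). This call rests on all 6 libraries, since without any 1 of them the adjusted p of Aim2 lay between 0.0559 (B220+ replicate 2 left out) and 0.123 (B220+ replicate 1 left out), with a log2 fold change of −0.30 to −0.21.

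Ifi209, also named Pyhin1, and Ifi214 are close copies on opposite strands. Ifi209 (ENSMUSG00000043263, chr1:173630917-173647928) stood at 100.9, 67.1 and 75.2 CPM in B220− replicates 1 to 3 and at 44.3, 44.9 and 49.7 CPM in B220+ replicates 1 to 3. B220− replicate 1 was the highest library, and the B220+ libraries lay close together. The log2 fold change was −0.81 (SE 0.14, 95% interval −1.14 to −0.48, edgeR adjusted p = 0.00825), with an adjusted p of 0.0544 without B220+ replicate 1 and 0.0664 without B220+ replicate 2. Ifi214 (ENSMUSG00000070501, chr1:173519717-173535957), which the deposited gene description gives as a pyrin-domain protein that lacks a HIN domain, stood at 15.5, 11.3 and 10.5 CPM in B220− and 7.55, 5.49 and 5.38 CPM in B220+ replicates 1 to 3. Replicate 1 was the highest library within both groups, and the groups did not overlap. Its log2 fold change was −1.04 (SE 0.19, 95% interval −1.46 to −0.63, edgeR adjusted p = 0.00328). Of the 50-base words in transcripts of Ifi209, 33.4% were also in those of Ifi214 (16.9% of 100-base words), so reads may have been lost or split between the pair, and their falls are not independent measurements.

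Ifi208, Ifi213 and Ifi206 form a second set of copies. Ifi208, also named Pydc3 (ENSMUSG00000066677, chr1:173673675-173698395, plus strand), had 55.3, 44.1 and 45.4 CPM in B220− and 28.2, 32.0 and 30.5 CPM in B220+ replicates 1 to 3. No B220+ library came near the B220− range, and the log2 fold change was −0.67 (SE 0.099, 95% interval −0.89 to −0.46, edgeR adjusted p = 7.06e-04). Ifi213, also named Pydc4 (ENSMUSG00000073491, chr1:173566283-173599274, minus strand), had 44.9, 35.4 and 40.7 CPM in B220− and 24.2, 29.9 and 25.1 CPM in B220+ replicates 1 to 3. Between the groups, B220− replicate 2 and B220+ replicate 2 came closest to each other, and the groups stayed apart (log2 fold change −0.60, SE 0.11, edgeR adjusted p = 0.00341). Ifi206 (ENSMUSG00000037849, chr1:173468485-173491041, minus strand), a neighbour of Aim2, had 74.6, 62.4 and 65.5 CPM in B220− and 44.6, 49.5 and 45.2 CPM in B220+ replicates 1 to 3. The B220+ libraries lay close together and below the B220− range (log2 fold change −0.54, SE 0.084, edgeR adjusted p = 0.00113). Of the 50-base words of Ifi208, 18.1% were also in Ifi213 (13.6% of those of Ifi213 were in Ifi208), and 25.6% of those of Ifi206 were in other genes, 11.1% in Ifi208. Reads may thus have been lost or split among these 3 members too, and their falls are not independent measurements. The calls of Ifi206, Ifi208, Ifi213 and Ifi214 held in all 11 alternative fits.

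Mndal and Ifi203, pyrin and HIN proteins of the distal part of the cluster, were the most abundant members. Mndal (ENSMUSG00000090272, chr1:173849126-173880881, minus strand) stood at 245.5, 259 and 255 CPM in B220− and 225, 272 and 249 CPM in B220+ replicates 1 to 3. The groups overlapped, and B220+ replicates 1 and 2 were the lowest and the highest of all 6 libraries. Its log2 fold change was −0.024 (SE 0.076) with a 95% interval of −0.19 to 0.14 (edgeR adjusted p = 0.899). Ifi203 (ENSMUSG00000039997, chr1:173920407-173942672, minus strand) stood at 239, 218 and 235 CPM in B220− and 216, 233 and 217 CPM in B220+ replicates 1 to 3, again with overlap. Its log2 fold change was −0.057 (SE 0.068, 95% interval −0.20 to 0.089, edgeR adjusted p = 0.702). The intervals of Mndal and Ifi203 do not reach the log2 fold changes of Ifi206, Ifi208, Ifi209, Ifi213 and Ifi214. Of the 50-base words of Mndal, 19.6% were also in other genes, and of those of Ifi203, 12.4%. Reads of Mndal and Ifi203 may therefore have been lost or split as well. The pseudogene Ifi203-ps (ENSMUSG00000090222, chr1:173776529-173798270) had 17, 3 and 8 counts in B220− and 5, 20 and 10 in B220+ replicates 1 to 3, for a log2 fold change of −0.12 with a 95% interval of −1.35 to 1.11, and 24.3% of its 50-base words are also in Ifi203. A difference in Ifi203-ps was not detectable at this depth.

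**Figure D2:**
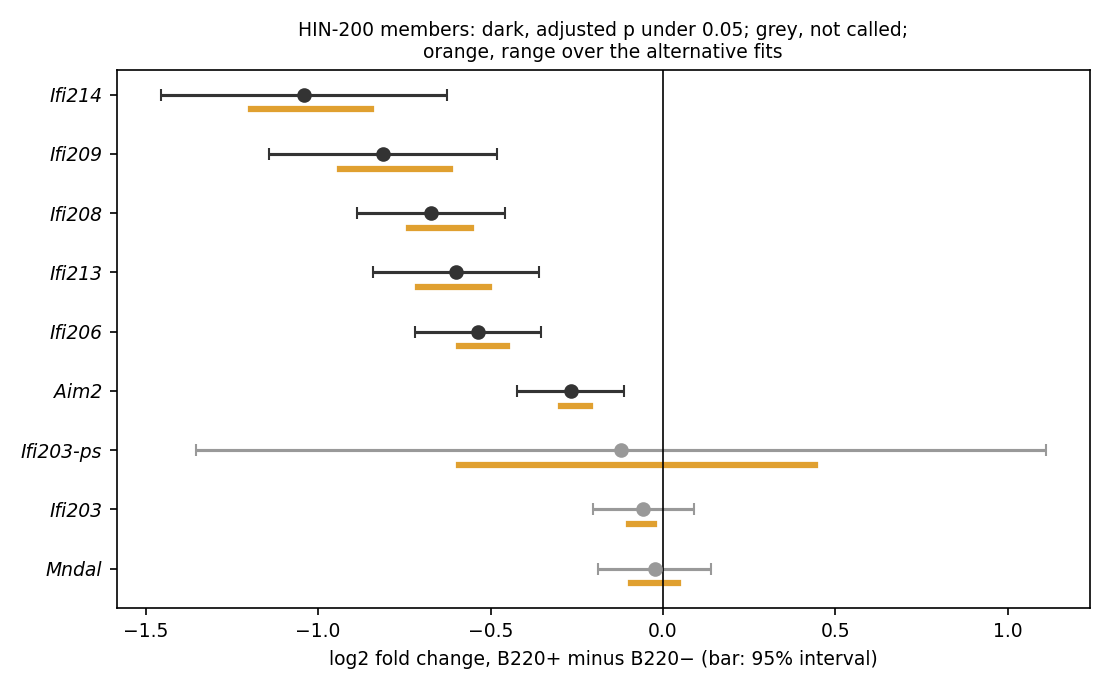
Log2 fold change (B220+ minus B220−) of the 9 members with its 95% interval from edgeR; dark points are called at an adjusted p under 0.05 and orange bars give the range over the alternative fits. Ifi214 has the lowest value, −1.04, and the intervals of Mndal, Ifi203 and Ifi203-ps include 0.

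Per kilobase of merged exon (GENCODE M21), the order of levels was Mndal, Ifi203, Aim2, Ifi206 and Ifi209, then Ifi208, Ifi213, Ifi214 and Ifi203-ps. On this scale Mndal stood at 69.8 ± 1.93 and 68.5 ± 6.44 CPM per kb in B220− and B220+ cells (mean ± SD, n = 3), and Ifi203 at 34.4 ± 1.70 and 33.1 ± 1.43 on the same scale. Aim2 stood at 33.7 ± 1.01 and 28.0 ± 1.88 CPM per kb. In B220− cells Ifi203 and Aim2 did not differ beyond their spread, and neither did Ifi206 (22.1 ± 2.08) and Ifi209 (22.9 ± 4.98). Ifi214 had a level of 1.53 ± 0.330 and 0.757 ± 0.151 CPM per kb. The lengths merge all annotated transcripts, so members with long alternative exons are placed lower on this scale. The Mndal model has other coordinates in the deposited table than in M21, so its length is approximate.

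The make-up of the family's counts differed between the groups. All 9 members together took 898, 815.5 and 842 CPM in B220− and 680, 768 and 724 CPM in B220+ replicates 1 to 3. Mndal made up 27.3% to 31.8% of these counts in B220− and 33.1% to 35.4% in B220+ libraries, and Ifi203 26.6% to 27.9% and 29.9% to 31.7%. The share of Ifi209 was 8.23% to 11.2% in B220− and 5.84% to 6.86% in B220+ libraries, with no overlap. The share of Aim2 did overlap, at 13.5% to 14.5% and 13.3% to 14.0%. Counts of Ifi206, Ifi214, Ifi213, Ifi209 and Ifi208, a grouping made after their values were seen, summed to 60.1%, 46.2% and 48.5% of the counts of Mndal and Ifi203 in B220− replicates 1 to 3. In B220+ replicates 1 to 3 they summed to 33.8%, 32.1% and 33.5%, and this ratio does not depend on library scaling.

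**Figure D3:**
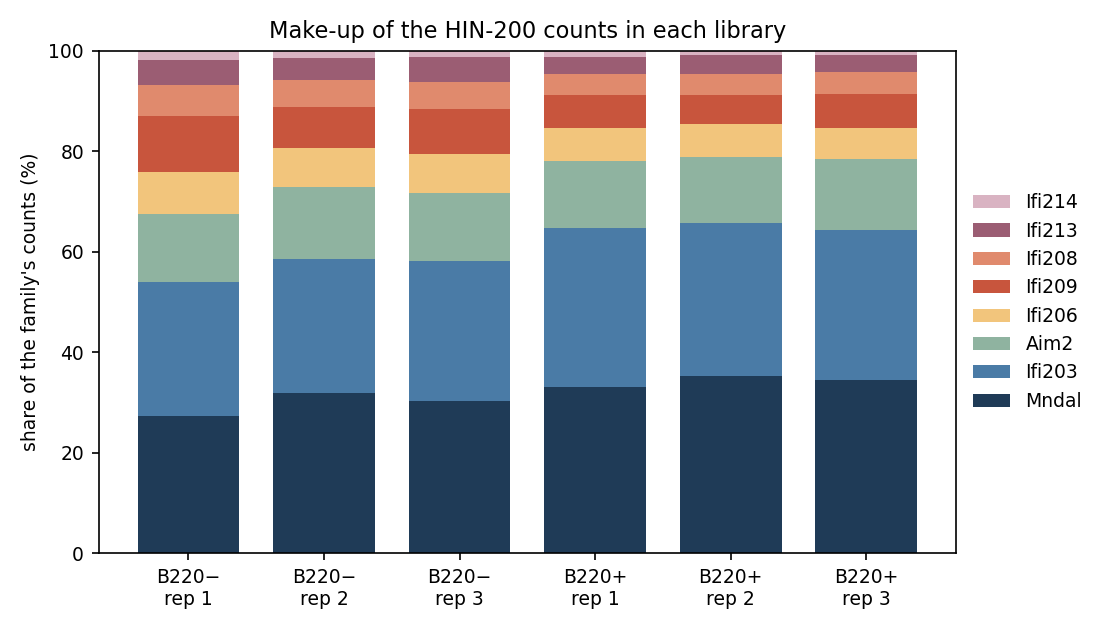
Share of the family's counts (percent, stacked bars) taken by each member in each library; Ifi203-ps is too small to draw. Every B220+ bar has larger Mndal and Ifi203 segments, and smaller Ifi209, Ifi208, Ifi213 and Ifi214 segments, than every B220− bar.

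Along the chromosome the 6 members called lower are neighbours, from Aim2 to Ifi208, and the tested members beyond them, Ifi203-ps, Mndal and Ifi203, were not called. Both strands are represented among the called members: Aim2, Ifi209 and Ifi208 lie on the plus strand and Ifi206, Ifi214 and Ifi213 on the minus strand. The deposited table holds 8 other gene models that overlap this span, of which 4 had a count. Only Gm18752, a transcribed pseudogene with 77 counts, entered the test and was not called (log2 fold change −0.85, edgeR adjusted p = 0.414). Exons of a member overlap those of an expressed gene only between Mndal and Ifi203, over 37 bases.

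**Figure D4:**
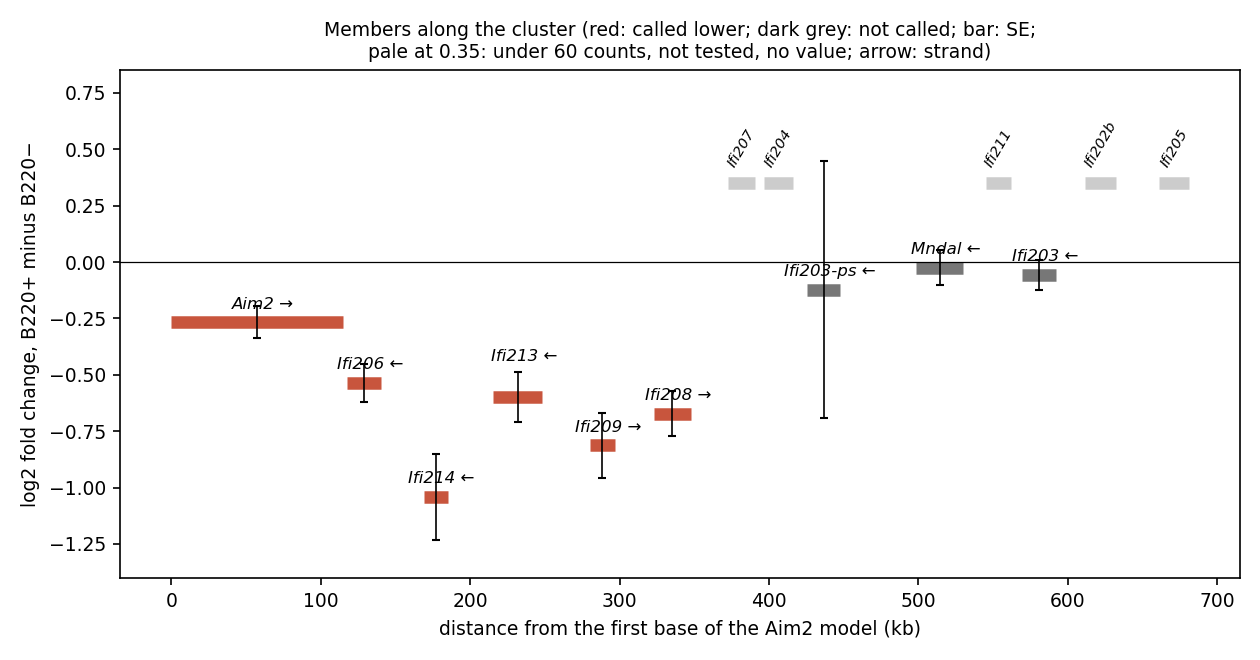
Log2 fold change (B220+ minus B220−) of each member against its distance from the first base of the Aim2 model (kb), with SE; arrows give the strand, and members under 60 counts are drawn in pale grey at 0.35 with no value. The 6 members called lower (red) lie in the first 347.5 kb of the cluster.

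The other 5 members were near or at the limit of detection. Ifi204 had 9 counts in the B220− libraries and 6 in the B220+ libraries, all 6 of them in replicate 2. Ifi205 had 4 and 7 counts. Ifi207 had 0 and 8 counts (1, 3 and 4 in B220+ replicates 1 to 3). With B220− set at the limit of 3 counts over its libraries, the observed B220+ level was 1.95-fold higher. Ifi211 had 6 and 0 counts (1, 3 and 2 in B220− replicates 1 to 3), 2.74-fold lower in B220+ cells on the same basis. Of its 50-base words, 72.8% occur in other genes. Ifi202b, known for low expression in C57BL/6 mice, had 0 counts in all libraries, which over each group allows up to 0.0627 CPM (B220−) and 0.0458 CPM (B220+). These limits cover only the counting error of a group at 0. The ratios of Ifi207 and Ifi211 leave out the error of their 8 and 6 counts, so they are not lower bounds.

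Among genes that act with the family, Casp1 was lower and Pycard, Gsdmd and Sting1 were not called. In the list of DNA sensing and inflammasome genes, 0 of 19 tested were called higher and 4 lower, with a median log2 fold change of −0.16. Among all genes tested, 5.58% were called higher and 5.56% lower. Casp1, the protease activated by the Aim2 inflammasome, fell from 80.3 ± 6.62 to 57.7 ± 3.08 CPM (log2 fold change −0.48, edgeR adjusted p = 0.00188). The other 3 were Zbp1, a sensor of nucleic acids in Z form (−0.46), Casp4 of the noncanonical inflammasome (−0.43) and Samhd1, a dNTP hydrolase (−0.40). Partners that did not pass were the adaptor Pycard (45.1 ± 8.14 and 41.5 ± 0.484 CPM), the pore-forming Gsdmd (100.9 ± 4.53 and 105 ± 7.43), Sting1 (83.5 ± 3.76 and 84.9 ± 3.33) and Cgas (8.70 ± 2.24 and 10.2 ± 0.507), with edgeR adjusted p of 0.589, 0.713, 0.898 and 0.514.

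Of 18 tested interferon receptor and signalling genes, 0 were called higher and 4 lower, with a median log2 fold change of −0.093. For comparison with this and the lists below, 5.58% of all genes tested were called higher and 5.56% lower. Those lower included Ifngr2, the second chain of the interferon gamma receptor, at 7.28 ± 0.597 and 1.75 ± 0.344 CPM (4.03-fold), Ifnar2 (1.37-fold) and the transcription factor Irf9 (1.24-fold). Ifnar1, Ifngr1 and Irf1 were not called (log2 fold change −0.091, −0.083 and −0.18). Irf8 went the other way, at 51.7 ± 20.4 and 133 ± 5.08 CPM. Every B220+ library lay above every B220− library, but Irf8 was not called (edgeR adjusted p = 0.0628). Among 7 ligand genes only Ifng was tested, which fell from 90.2 ± 7.04 to 36.0 ± 3.92 CPM (edgeR adjusted p = 3.21e-06), and the other 6 were listed at 0 in every library. In the list of interferon-stimulated genes, 0 of 27 tested were called higher and 12 lower, with a median log2 fold change of −0.38. Among the called genes the largest falls were those of Oas2 (−3.40), Oas3 (−2.50), Mx1 (−2.43), Ifi27l2a (−1.48), Ifit1bl1 (−1.12) and Ifit1 (−0.95). Oas2 and Oas3 encode oligoadenylate synthetases, and Oas2 had only 70 counts in B220− and 9 in B220+ libraries. Mx1, of the antiviral GTPase family, is annotated as a polymorphic pseudogene in the deposited data. Oasl1 was higher without overlap of the groups, at 3.67 ± 1.23 and 6.21 ± 1.12 CPM, but not called (edgeR adjusted p = 0.0717).

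**Figure D5:**
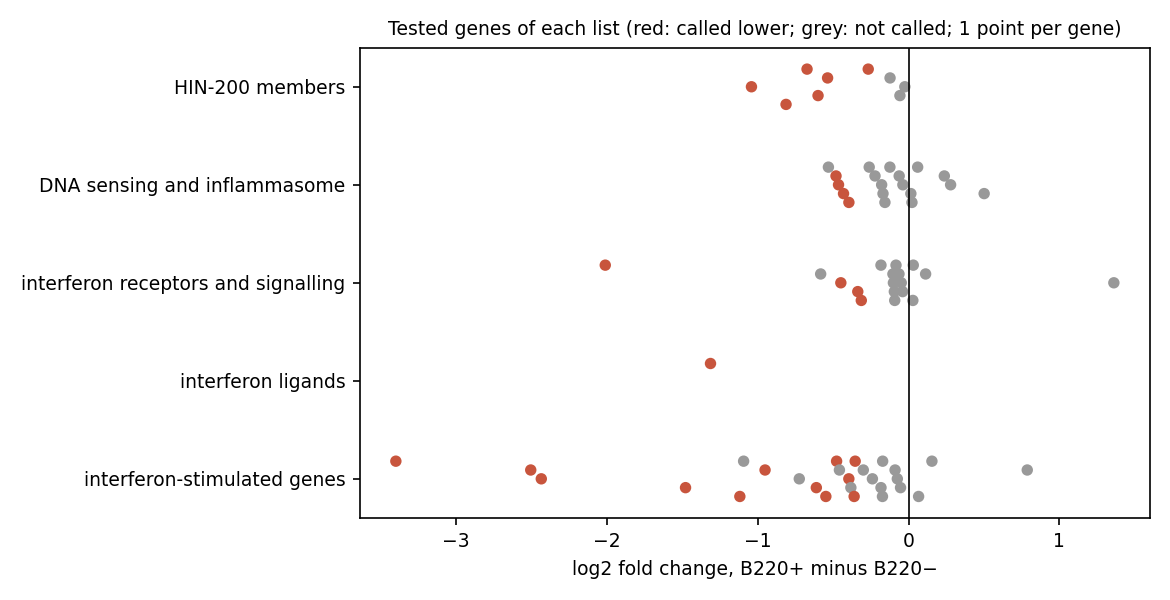
Log2 fold change (B220+ minus B220−) of every tested gene in the family and in the 4 lists, 1 point per gene, red if called lower at an adjusted p under 0.05. The called HIN-200 members lie between −1.04 and −0.27, and no gene of any list is called higher.

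Markers of T cell subsets were lower in B220+ cells as well. In the list of markers of CD4, CD8αβ and naive T cells, 11 of 12 tested were called lower, against 5.56% of all genes tested. The summed level of this list was 1014 to 1482 CPM in B220− and 281 to 395 in B220+ libraries. Markers of macrophages and dendritic cells summed to 34.0 to 38.7 and 25.6 to 30.3 CPM, with Lyz2 and Ccr2 called lower and 0 called higher among 8 tested and no marker at 0. Markers of this list were not all on the lower side. Siglech, of plasmacytoid dendritic cells, had 4 counts in B220− and 96 in B220+ libraries. It did not enter the test, so not every B220+ library reached the level of the count filter. Itgam stood at 2.80 ± 0.465 and 4.08 ± 0.361 CPM (edgeR adjusted p = 0.170). Those of B and plasma cells summed to 162 to 278 and 253 to 333, with Blk called lower and 0 called higher among 5 tested and Mzb1 at 0. Most of that sum was Ighm, at 155 ± 36.6 and 253 ± 34.4 CPM, higher in every B220+ library but not called (edgeR adjusted p = 0.0950), and Cd79b stood at 27.4 ± 4.37 and 31.7 ± 1.80 CPM (adjusted p = 0.357). Granulocyte and mast cell markers summed to 5.22 to 13.8 and 3.64 to 4.73, with Mcpt1 called lower among 2 tested and S100a8, S100a9, Ly6g and Cxcr2 at 0. Epithelial markers summed to 292 to 360 and 323 to 380, with 0 of 9 called. Most of that sum was Cdh1, at 265 ± 24.99 and 257.9 ± 16.05 CPM. Epcam stood at 35.9 ± 14.7 and 75.35 ± 6.20 CPM. Every B220+ library was above every B220− library in Epcam, but it was not called (edgeR adjusted p = 0.170). Of the other tested epithelial markers, Lyz1 was the highest, at 11.5 ± 13.3 and 11.6 ± 14.6 CPM. Group means of Vil1, Krt8, Krt20, Fabp2, Apoa1 and Muc2 lay between 0.822 (Muc2, B220+) and 4.14 CPM (Krt8, B220−). Defining T cell genes were present throughout, with Cd3e at 1214 ± 13.7 and 1361 ± 56.4 CPM. The part of these differences in the fall of the HIN-200 members was not tested.

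Mndal, the member with the highest level per kilobase, was compared by pattern with 9380 genes of at least 10 CPM. By root mean square distance of centred log2 CPM over the 6 libraries, the nearest were Osbpl7 (0.021), Dclre1c (0.026), Atp11a (0.027), Galnt11 (0.029) and Zup1 (0.030), none of them on chromosome 1. None was called between the groups, which follows from choosing genes close in pattern to Mndal.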

How the data were processed

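The deposited table holds raw read counts (whole numbers) for 6 libraries. Per the submitters' processing notes the build was mm10, reads were counted with featureCounts 1.6.3, and the other tools were HISAT2 2.1.0, SAMtools 1.9, Trimmomatic 0.38 and FastQC 0.11.7. How multiply matching reads were counted is not given in the sources used here. Library totals were 11320363 to 39591312 counts. Of the gene models, 98.73% had the coordinates of GENCODE M21, used for exon lengths and shared words of 50 and 100 bases.

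Counts were tested with edgeR 4.0.16 (R 4.3.3): trimmed-mean scaling (factors near 1), filterByExpr (minimum count 10, total 15), robust quasi-likelihood fit on the group alone, and Benjamini-Hochberg adjustment over 14722 genes. The standard error is the log2 fold change over the root of F. The fit was tested on simulated data. Alternatives were the replicate block, DESeq2 1.42.0, its size factors, 2 other filters and leaving out each library.

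Libraries with the same replicate number deviated together (r across genes 0.280, 0.259 and 0.290, against −0.18 to −0.091 for other pairs). Deviations were centred within each group, so positive values for these pairs make the others negative. The numbers were taken as pairs only in the replicate block, from the data and not from the labels. The fit on the group alone, which gave the edgeR values of the members, did not use the pairs.

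Every member with at least 60 counts is named. Of each list, up to 6 called genes with the largest change and a preset few are, as are some further genes that were not called. A gene that the rule would name is not reported here. Members and lists were chosen with earlier results of these data known.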

Additional observations from a re-analysis of the deposited data

How the results depend on the processing

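With the replicate block, DESeq2, DESeq2's size factors, no filter on low counts or a stricter one (1 CPM in 3 libraries), 6 HIN-200 members were called lower and 0 higher in each fit. Leaving out 1 library gave 4 to 5 lower and 0 higher. The count of all genes called was 2569 with the replicate block against 1639, and 970 to 1789 when 1 library was left out (970 without B220+ replicate 2, 1029 without B220− replicate 3). The log2 fold change of Ifi203-ps turned to 0.072 with the replicate block and to 0.44 without B220− replicate 1, and that of Mndal to 0.044 without B220+ replicate 1 (over all libraries left out in turn −0.59 to 0.44 and −0.093 to 0.044), none of them called, and the cause was not tested. Ifi203-ps did not enter the stricter filter. The replicate block changed no call of a member. Aim2 was past the threshold in 5 of 11 alternatives and Ifi209 in 9 of 11. The depth limits Ifi203-ps and the 5 members with 15 counts or fewer.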
